A study of Mus musculus with 4 samples.

Results

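The antigen-presenting chains of MHC class I and a panel of interferon-induced genes were read in 4 mouse cerebellar tumors of the genotype Chd7-het, heterozygous for the chromatin remodeller gene Chd7, on a mixed CD1xC57BL/6 background. The members were the 9 genes B2m, H2-D1, H2-K1, Irf7, Irf9, Ifit1, Ifit3, Isg15 and Bst2, taken with every probe set of the Affymetrix Mouse Genome 430 2.0 array that the platform annotation gives to a single gene, with no filter on the signal. This gave 16 of 24679 single-gene probe sets, for 8 of the 9 genes: 11 for the class I chains and 5 for the interferon-induced members. The 1 Isg15 probe set in the table names a further gene as well, so no level of Isg15 is reported. The tumors carry the sample numbers 1, 2, 4 and 5, with 1 array per tumor. All belong to 1 group, and neither normal cerebellum nor another genotype was analysed here, so every comparison is of 1 tumor with the other 3. The sources used here do not state the age and sex of the mice or how the tumors arose.

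Interferons signal through their receptors, JAK kinases and STAT factors. IRF9 is the subunit through which type I interferon signalling reaches interferon-stimulated response elements in the promoters of its target genes, whereas IRF7 amplifies the production of interferon itself. MHC class I molecules, made of a heavy chain and the light chain B2m, show peptides from inside the cell to T cells. Neural cells normally carry little of them, microglia and endothelium carry more, and interferons raise class I in all of these cells. A tumor is a mixture, and in RNA of whole tissue a change in the number of cells of a type cannot be told apart from a change in RNA per cell.

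The promoters of 7 members are shown because they carry the elements through which interferon and NF-kappa B are known to act on these genes. The RefSeq promoters of build GRCm38.p6, 250 bases before to 50 after the start of transcription, were found for all 9 genes and searched on both strands for 3 motifs. GAAANNGAA is the core of the interferon-stimulated response element, AANNGAAA is the half-site of IRF factors, which can overlap a GAAANNGAA match, and GGGATTCCC is the centre of the kappa B site in the class I enhancer A. The lines run 5′ to 3′ from position -190 to -41 relative to the start. Capitals mark GAAANNGAA in B2m, Ifit1, Ifit3, Isg15 and Bst2, and GGGATTCCC followed by the AANNGAAA half-site in H2-D1 and H2-K1, all on either strand.
B2m, chr2:122147497-122147646, + strand: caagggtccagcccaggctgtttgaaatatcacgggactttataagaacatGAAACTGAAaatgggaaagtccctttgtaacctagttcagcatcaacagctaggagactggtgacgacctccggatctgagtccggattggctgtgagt
H2-D1, chr17:35262904-35263053, + strand: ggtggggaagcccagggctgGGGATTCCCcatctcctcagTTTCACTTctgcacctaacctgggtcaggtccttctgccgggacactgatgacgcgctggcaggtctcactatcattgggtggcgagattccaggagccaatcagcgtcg
H2-K1, chr17:34000388-34000537, - strand: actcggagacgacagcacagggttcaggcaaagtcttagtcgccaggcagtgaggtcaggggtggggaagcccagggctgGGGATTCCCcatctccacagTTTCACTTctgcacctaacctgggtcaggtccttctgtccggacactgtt
Ifit1, chr19:34640699-34640848, + strand: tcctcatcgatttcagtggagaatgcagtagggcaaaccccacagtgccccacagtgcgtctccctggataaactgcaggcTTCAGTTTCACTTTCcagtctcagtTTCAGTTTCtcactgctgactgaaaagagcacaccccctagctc
Ifit3, chr19:34583339-34583488, + strand: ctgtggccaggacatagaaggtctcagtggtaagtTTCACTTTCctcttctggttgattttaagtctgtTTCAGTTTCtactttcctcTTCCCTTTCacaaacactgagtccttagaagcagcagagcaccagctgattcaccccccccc
Isg15, chr4:156200859-156201008, - strand: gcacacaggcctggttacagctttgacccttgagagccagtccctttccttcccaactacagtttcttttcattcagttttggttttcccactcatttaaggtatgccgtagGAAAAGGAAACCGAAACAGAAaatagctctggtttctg
Bst2, chr8:71537513-71537662, - strand: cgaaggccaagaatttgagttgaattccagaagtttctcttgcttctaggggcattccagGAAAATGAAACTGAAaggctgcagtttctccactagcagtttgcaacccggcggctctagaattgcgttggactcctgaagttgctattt

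GAAANNGAA was present in 5 of the 9 genes, against 8.56% of all 32851 promoters in the table. Ifit1 and Ifit3, whose proteins bind viral RNA or partner in that binding, held 3 matches each, and their starts lie 57.36 kb apart on chromosome 19. In Ifit1, 2 of the 3 overlapped, between -109 and -95, while in Ifit3 the 3 stood apart. Isg15, a ubiquitin-like protein that is attached to other proteins, held 3 overlapping matches between -78 and -58. Bst2, the tetherin that holds budding virus on the cell surface, held 2 overlapping matches between -130 and -116, and B2m held 1, at -139 to -131. The class I heavy chain genes had no GAAANNGAA in this window but the shorter AANNGAAA, which 23.9% of all promoters hold. In H2-D1 it lay at -150 to -143 and in H2-K1 at -90 to -83, in each just downstream of GGGATTCCC, at -170 to -162 in H2-D1 and at -110 to -102 in H2-K1. GGGATTCCC was found in 116 of the 32851 promoters (0.353%). Aligned on that site, 86 of 90 bases of the H2-D1 and H2-K1 lines were identical, with a longest shared run of 40 bases. None of the 3 motifs was found in the windows of Irf7 and Irf9. These are matches of letters, and no binding was measured here.

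**Figure D1:**
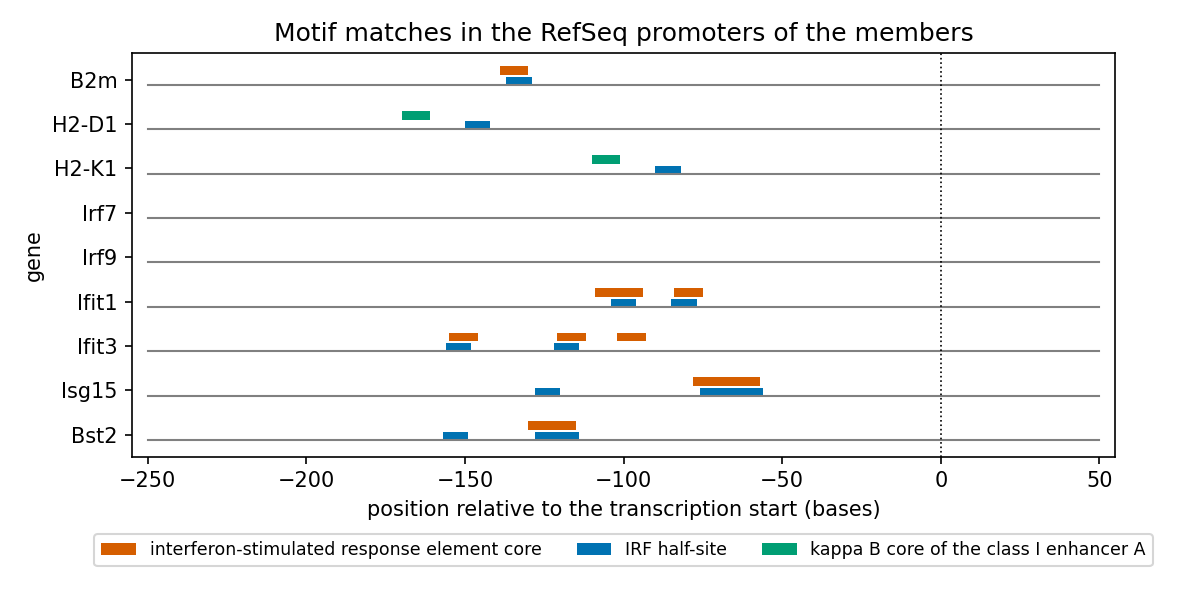
Positions of the motif matches in the RefSeq promoters of the 9 members (first promoter entry per gene), in bases relative to the start of transcription at 0; grey lines span the 300 bases searched and coloured bars are matches on either strand. The interferon-stimulated response element core lies upstream of the start in B2m, Ifit1, Ifit3, Isg15 and Bst2, and H2-D1 and H2-K1 share the kappa B core with the half-site beside it.

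In the arrays, the class I chains read highest in tumor 4 and, on most probe sets, lowest in tumor 1, by less than 2-fold from the rest. The interferon-induced members lay low on the signal scale, and only Irf9 and Bst2 stood above the floor. The floor used here to judge low signals is 5.12 on the log2 scale, 34.9 linear, the median over the arrays of their 40th percentile, since the table holds no detection calls. Of the 16 probe sets, 11 lay above it in all 4 tumors and 5 below it in all 4. No member passed the test in any tumor.

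B2m encodes the light chain shared by all class I molecules. Its probe set 1449289_a_at read 10.55 in tumor 4, against 10.13, 10.31 and 10.11 in tumors 1, 2 and 5 (log2 signal, as for all levels given here). Its probe set 1452428_a_at read 10.56 in tumor 4, against 9.85, 10.05 and 9.88 in tumors 1, 2 and 5. On both, tumor 4 stood above the other 3, by 0.24 and 0.51 over the next tumor, while tumors 1 and 5 lay 0.019 and 0.028 from each other. The limma difference of tumor 4 from the mean of the other 3 was 0.36 (SE 0.18, adjusted p = 1.00) and 0.63 (SE 0.18, adjusted p = 1.00), or 1.28-fold and 1.55-fold.

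H2-D1 encodes a classical class I heavy chain. Its brightest probe set, 1425545_x_at, read 10.30 in tumor 4, against 9.49, 9.83 and 9.74 in tumors 1, 2 and 5, a difference of 0.61 (SE 0.20, adjusted p = 1.00, limma). Probe set 1451784_x_at read 10.10 in tumor 4, against 9.15, 9.42 and 9.84 in tumors 1, 2 and 5, and 1451683_x_at read 8.42 in tumor 4, against 7.43, 7.98 and 7.58. The order of tumors 2 and 5 thus turned between these 2 probe sets, whereas tumor 4 was highest and tumor 1 lowest on each of the 3. The probe set without the _x_at suffix, 1426324_at, lay near the floor and had the smallest span of the 4: it read 5.97 in tumor 4, against 5.57, 5.78 and 5.54 in tumors 1, 2 and 5. The fifth, 1450170_x_at, lay far below the floor, between 2.07 and 2.29, and carries no order.

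H2-K1 encodes the other classical heavy chain measured, and its start lies 1262.7 kb from that of H2-D1 on chromosome 17. Probe set 1451931_x_at read 9.72 in tumor 4, against 8.89, 9.09 and 9.13 in tumors 1, 2 and 5, a difference of 0.68 (SE 0.18, adjusted p = 1.00, limma). Probe set 1425336_x_at read 9.62 in tumor 4, against 8.41, 9.001 and 9.06 in tumors 1, 2 and 5. Here tumors 2 and 5 lay 0.047 and 0.063 from each other on these probe sets, with tumor 1 below and tumor 4 above them. Probe set 1427746_x_at read 6.61 in tumor 4, against 5.46, 6.13 and 5.78 in tumors 1, 2 and 5, and had the largest difference of the class I probe sets, 0.82 (SE 0.33, adjusted p = 1.00, limma). The last 2 were the class I probe sets that spanned 2-fold or more over the tumors, at 2.31-fold and 2.22-fold. The fourth, 1450534_x_at, lay below the floor in all tumors, between 3.14 and 3.72.

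**Figure D2:**
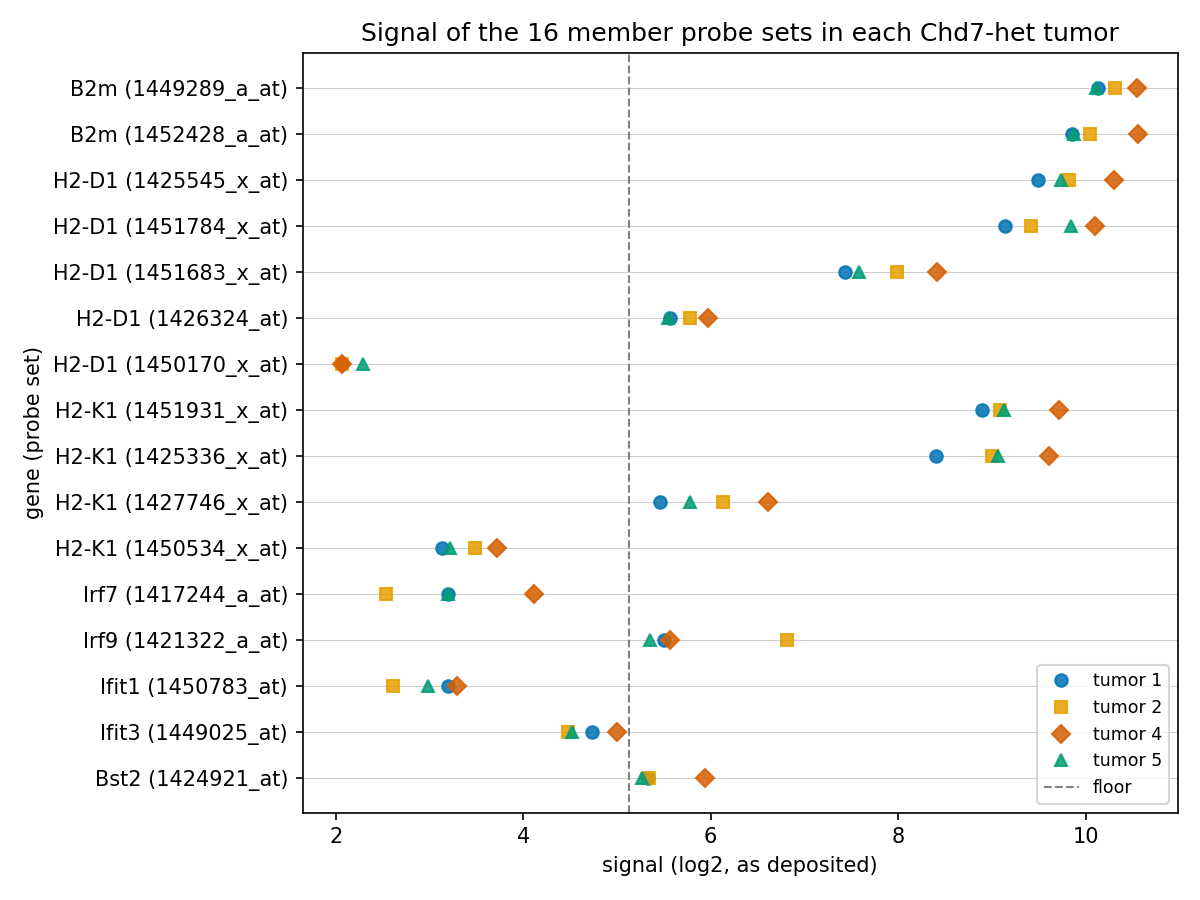
Log2 signal of the 16 member probe sets (rows) in the 4 tumors (1 point per tumor and array, no error bars since each is a single array); the dashed line is the floor of 5.12. Tumor 4 is the rightmost point on each of the 9 class I probe sets above the floor and on Bst2, and tumor 2 is the rightmost on Irf9.

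Over the list, all 9 class I probe sets above the floor read highest in tumor 4, whereas 17.7% of all probe sets with a mean above the floor did. Tumor 1 was the lowest on 7 of the 9, against 29.5% of such probe sets. Leaving out tumor 1 could not change the 9 of 9, since a tumor highest among all stays highest among fewer. The share of all such probe sets was then 24.5%. The 11 class I probe sets had a median difference of 0.63 in tumor 4, -0.42 in tumor 1, -0.015 in tumor 2 and -0.22 in tumor 5, where the median over all probe sets lay between -0.030 and 0.020. These probe sets are not independent readings. Of the 11, 8 carry the suffix _x_at, which Affymetrix gives to probe sets with probes that match other transcripts, and 1 further probe set that names both H2-K1 and H2-D1 was not used. On the 3 without the suffix, from B2m and H2-D1 and themselves among the 9, the median was 0.36 in tumor 4 and -0.20 in tumor 1. Without tumor 4 among the others, the median of tumor 1 was -0.22.

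By the test, limma over all 24679 probe sets with a Benjamini-Hochberg adjusted p under 0.05 and a difference of 2-fold or more, 0 of the 16 members passed in tumor 4, where 0.0% of all probe sets did. In tumor 1 also 0 of 16 passed, against 0.49% of all (121 probe sets), and 0 of 16 passed in tumors 2 and 5, where 0.0% of all did. At an unadjusted p under 0.05, 6 of 16 members were higher in tumor 4, all class I, against 0.357% of all probe sets. In tumor 1, 2 of 16 were lower, against 3.42%, namely H2-K1 1425336_x_at at -0.82 (SE 0.26, adjusted p = 0.291) and H2-D1 1451784_x_at at -0.64 (SE 0.26, adjusted p = 0.456). In tumor 2, 1 of 16 was higher, Irf9, against 3.76%, and in tumor 5 there was 0 of 16 in either direction, against 1.26% higher and 2.89% lower. The smallest adjusted p of a member in tumor 4 was 1.00. With a lone tumor against 3, and the lone one assumed to vary like the others, the test can reach only differences far outside the spread. The class I probe sets are repeated readings of 3 genes and, as said above, not independent, so counts of them are not counts of separate genes.

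**Figure D3:**
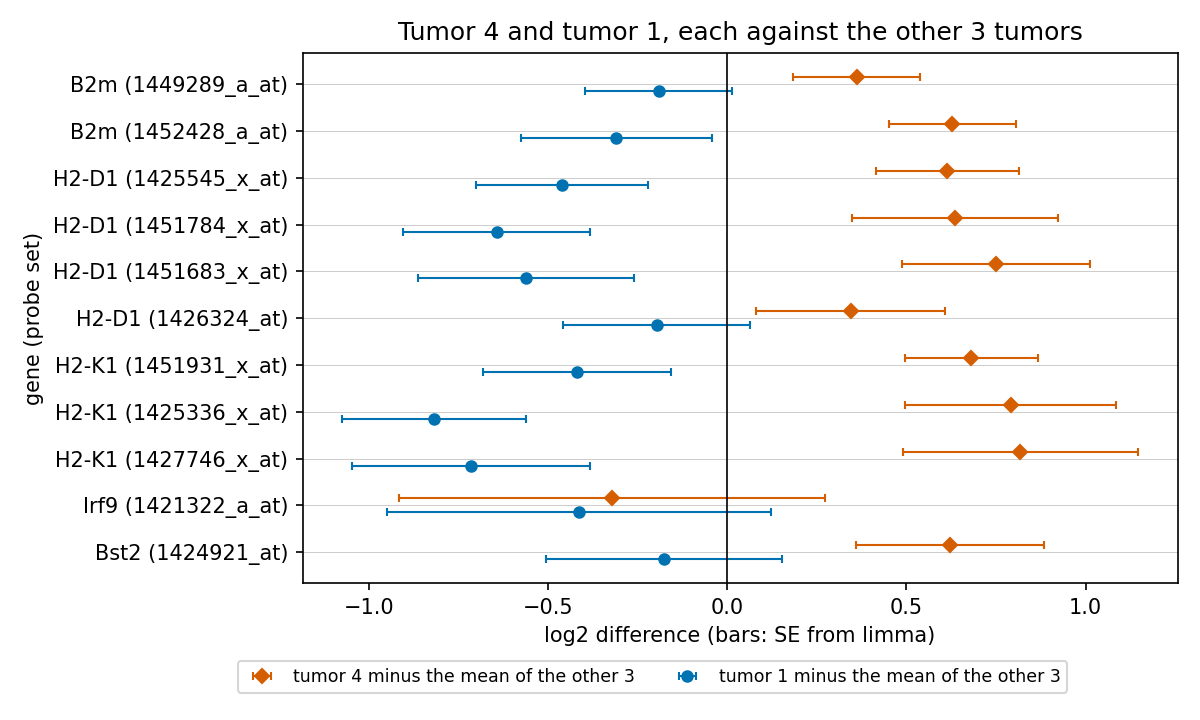
Log2 difference of tumor 4 (diamonds) and of tumor 1 (circles) from the mean of the other 3 tumors for the 11 member probe sets above the floor; bars are limma's SE. For the class I rows, tumor 4 lies between 0.34 and 0.82 and tumor 1 between -0.82 and -0.19, and no difference passed the adjusted threshold.

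Among the transcription factors, Irf9, the DNA-binding subunit of the type I interferon complex, stood out in another tumor. It read 6.81 in tumor 2, against 5.50, 5.57 and 5.35 in tumors 1, 4 and 5. Tumor 2 thus lay 1.25 above the next tumor, and the other 3 spanned 0.21. The difference was 1.34, or 2.53-fold (SE 0.22, adjusted p = 0.840, limma), and did not pass over all probe sets. Irf7 never reached the floor, at 4.11 in tumor 4, against 3.20, 2.54 and 3.20 in tumors 1, 2 and 5, so no fold is given.

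Of the effectors, Bst2 read 5.94 in tumor 4, against 5.34, 5.34 and 5.26 in tumors 1, 2 and 5. The other 3 tumors spanned 0.080, just above the floor, and tumor 4 lay 0.59 above the highest of them. The difference was 0.62, or 1.54-fold (SE 0.26, adjusted p = 1.00, limma). Ifit1 and Ifit3, classical early targets of type I interferon, lay below the floor throughout: Ifit1 between 2.61 and 3.29, and Ifit3 between 4.48 and 5.00. At such signals no order can be read, although both were listed highest in tumor 4. The 5 interferon-induced probe sets had a median difference of 0.42 in tumor 4, -0.082 in tumor 1, -0.27 in tumor 2 and -0.22 in tumor 5, medians that rest on 3 probe sets below the floor.

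The spread between tumors was read as the SD and the span. The SD over the 4 tumors had a median of 0.36 over the 11 members above the floor, against 0.18 over all 16134 probe sets with a mean above it. A span of 2-fold or more was seen in 3 of these 11, against 7.12% of all such probe sets. The 3 were Irf9, with tumor 2 high, and the H2-K1 pair named above, with tumor 4 high and tumor 1 low. Over the 16 members it was 4, which adds Irf7 below the floor, against 19.0% of all 24679. The count of 4 became 1 without tumor 4 and 2 without tumor 1, without tumor 2, or with values raised to the floor and the filter on the mean. No test was made of the members' spread as a group.

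The rest of the pathway was read from 9 lists with 121 genes, of which 87 were measured, each by its brightest probe set, and 49 had a mean above the floor. None of the 87 passed limma's test in any tumor (0 genes). At an unadjusted p under 0.05, 3 of the 87 were higher and 0 lower in tumor 4, where 0.357% of all probe sets were higher and 0.912% lower. In tumor 1, 3 were higher and 7 lower, against 6.92% and 3.42% of all. In tumor 2, 0 were higher and 4 lower, against 3.76% and 1.84%, and in tumor 5, 2 were higher and 3 lower, against 1.26% and 2.89%. Tumor 4 was the highest of the tumors in 21 of the 49 genes above the floor, against 18.8% of all 9731 such genes, and their median difference there was 0.18. In tumor 1 the 49 had a median of -0.063.

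Ligands and sensors lay mostly below the floor. Ifnb1, interferon beta, the only ligand gene measured, read between 2.07 and 2.85. Of 6 genes for the sensing of foreign nucleic acid, 5 never reached the floor. The other, Mavs, a mitochondrial adaptor, read 6.19 in tumor 4, against 6.46, 6.72 and 6.29 in tumors 1, 2 and 5. Receptors, kinases and STAT factors were above the floor in 8 of 9 cases and had a median difference over the 8 of -0.0024 in tumor 4. Stat3 read 7.29 in tumor 4, against 6.88, 6.78 and 6.68 in tumors 1, 2 and 5, while Ifngr2, a chain of the interferon gamma receptor, read 6.60 in tumor 1, against 5.93, 5.77 and 6.14 in tumors 2, 4 and 5. Ifnar2, a chain of the type I interferon receptor, was highest in tumor 5, at 7.10, against 6.86, 6.53 and 6.95 in tumors 1, 2 and 4. Of 9 other IRFs and feedback genes, 8 had a mean above the floor, 5 of the 8 were highest in tumor 4 and 3 in tumor 5. Irf8, a factor of myeloid cells, read 5.97 in tumor 4, against 5.58, 5.60 and 5.45 in tumors 1, 2 and 5. Ptpn6, a phosphatase of blood cells, read 5.92 in tumor 4, against 4.66, 5.24 and 5.20, with tumor 1 below the floor. Irf5 was highest in tumor 5, at 5.65, against 4.89, 5.01 and 5.53 in tumors 1, 2 and 4, with tumors 1 and 2 below the floor.

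Among other type I targets, 15 of 30 measured had a mean above the floor. Of the 15, 8 were highest in tumor 4, and the median difference there was 0.21. Ifit2, unlike Ifit1 and Ifit3, lay above the floor in all tumors. It read 8.07 in tumor 4, against 7.29, 8.08 and 7.88 in tumors 1, 2 and 5. Ifitm1, a membrane protein that blocks virus entry, read 5.82 in tumor 4, against 4.35, 5.32 and 5.37 in tumors 1, 2 and 5. Samd9l read 6.08 in tumor 4, against 4.83, 5.83 and 6.02, so that tumor 1, below the floor here as for Ifitm1, was the one apart. Cmpk2, a mitochondrial nucleotide kinase, was instead lowest in tumor 5, at 4.87, against 5.92, 5.87 and 5.73 in tumors 1, 2 and 4. Of the interferon gamma GTPases, 3 of 9 were above the floor, of which 1 was highest in tumor 4 and 2 in tumor 2. Igtp read 5.82 in tumor 4, against 5.35, 5.07 and 5.10 in tumors 1, 2 and 5, the last pair just below the floor. Irgm1 read 6.44 in tumor 2, against 6.30, 6.29 and 5.77 in tumors 1, 4 and 5, and Gbp7 read 6.11 in tumor 2, against 5.52, 6.06 and 5.84.

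The machinery that loads class I molecules showed the same order in Psmb8, an inducible part with a mean above the floor. Psmb8, a subunit of the immunoproteasome, read 5.91 in tumor 4, against 4.72, 5.33 and 5.17 in tumors 1, 2 and 5, a difference of 0.84 (SE 0.35, adjusted p = 1.00, limma), with tumor 1 below the floor. The chaperones Calr and Pdia3, which also help other glycoproteins to fold, were highest in tumor 5, at 10.80 and 10.84, against 10.34 and 10.38 in tumor 1, 10.18 and 10.20 in tumor 2 and 10.75 and 10.46 in tumor 4. Psmb10, another immunoproteasome subunit, was also highest in tumor 4, at 6.93, but lowest in tumor 2, at 6.47, against 6.81 and 6.64 in tumors 1 and 5. Psmb9, with a mean below the floor, read 5.28 in tumor 4. It read 4.47, 4.63 and 4.52 in tumors 1, 2 and 5, all below the floor. Of the 8 loading genes above the floor, 3 were highest in tumor 4, 3 in tumor 5 and 2 in tumor 2. Over these 8 the median difference in tumor 4 was 0.17. The non-classical class I gene Cd1d1, which presents lipids, was highest in tumor 2, at 8.66, against 8.25, 8.50 and 8.01 in tumors 1, 4 and 5. H2-M3 was highest there too, at 5.55, against 4.91, 5.50 and 5.15, whereas Mr1, which presents vitamin metabolites, was highest in tumor 1, at 7.37, against 7.15, 6.91 and 6.82 in tumors 2, 4 and 5.

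Class II genes, which are made mainly by professional antigen-presenting cells, spanned the widest range of the pathway lists. H2-Aa read 6.89 in tumor 4, against 4.18, 5.85 and 6.28 in tumors 1, 2 and 5, and lay below the floor in tumor 1 alone. Cd74, the invariant chain, read 6.08 in tumor 4, against 4.61, 4.88 and 5.39 in tumors 1, 2 and 5, with tumors 1 and 2 below the floor. Ciita, the coactivator of class II transcription, lay below the floor in all tumors. On both genes above the floor in the mean, tumor 4 read highest and tumor 5 next, and values below the floor give no order.

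Markers of other cells in the tissue moved beside the class I chains. Of 18 microglia and macrophage genes measured, 16 had a mean above the floor, 13 of the 16 were highest in tumor 4 and 9 lowest in tumor 1, and 0 passed limma's test in any tumor. Of all 9731 genes with a mean above the floor, 18.8% were highest in tumor 4 and 30.3% lowest in tumor 1. The mean deviation of the 16 marker genes was 0.33 in tumor 4, against -0.25, 0.0018 and -0.085 in tumors 1, 2 and 5. That of the 3 class I chains, by their brightest probe sets, was 0.41 in tumor 4, against -0.27, -0.032 and -0.11 in tumors 1, 2 and 5. The order of the 4 tumors was thus the same in both lists. It was also the same in the 15 type I targets above the floor. Their mean deviation was 0.20 in tumor 4, against -0.15, 0.044 and -0.099 in tumors 1, 2 and 5. In the class II and class I loading lists tumor 4 was highest as well, but tumor 5 lay above tumor 2. The summed linear signal over the 18 microglia and macrophage genes was 8290 in tumor 4 and between 5001 and 6188 in the other 3. Lyz2, the macrophage lysozyme, read 11.04 in tumor 4, against 9.49, 10.41 and 10.62 in tumors 1, 2 and 5, and Ptprc, the leukocyte antigen CD45, read 4.83 in tumor 1, against 6.22, 6.32 and 6.26 in tumors 2, 4 and 5. P2ry12, a microglial receptor, was highest in tumor 1 instead, at 7.19, against 6.49, 6.72 and 6.23. The part of these cells in the class I readings was not tested.

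Lymphocyte markers that could be read, Cd8a and Gzma of T and NK cells and Cd79b of B cells, lay below the floor in all 4 tumors. The 3 endothelial genes above the floor had a mean deviation of -0.12 in tumor 4, against 0.092, 0.021 and 0.0067 in tumors 1, 2 and 5. Only 1 of the 3 was lowest in tumor 4. This was Cldn5, a tight junction protein, at 6.50 in tumor 4, against 7.19, 6.93 and 6.92 in tumors 1, 2 and 5. Slco1a4 read 6.31 in tumor 4 and was highest in tumor 2, at 6.45. Esam read 6.12 in tumor 4 and was highest in tumor 5, at 6.33. Of the granule cell progenitor genes, which mark the precursors of cerebellar granule neurons, 11 of 11 measured had a mean above the floor. Lowest in tumor 1 were 8 of the 11, against 30.3% of all 9731 such genes, and 3 were highest in tumor 4, against 18.8%. Their median difference was -0.36 in tumor 1 and 0.061 in tumor 4, beside -0.42 and 0.63 for the class I probe sets. Atoh1, the factor that specifies these cells, read 9.92 in tumor 1, against 10.54, 10.81 and 10.90 in tumors 2, 4 and 5. Pax6 was instead highest in tumor 1, at 9.78, against 8.82, 8.48 and 8.26, and Gli2, a Hedgehog pathway factor, was highest in tumor 2, at 9.73, against 8.93, 9.11 and 9.01 in tumors 1, 4 and 5. Purkinje cell and myelin genes were highest in tumor 1, where the class I chains were lowest: of the 8 Purkinje and inhibitory neuron genes, 6 had a mean above the floor and all 6 were highest there, and 2 of the 8 passed limma's test. These were Car8, at 10.03 in tumor 1, against 7.08, 7.23 and 6.31 in tumors 2, 4 and 5 (adjusted p = 0.0271), and Pvalb, at 8.94 in tumor 1, against 6.28, 6.90 and 6.29 (adjusted p = 0.0309). Pcp2, Calb1 and Pcp4 had the widest ranges, with Calb1 at 9.45 in tumor 1, against 3.89, 6.02 and 4.60 in tumors 2, 4 and 5. Of the 7 myelin genes, 4 had a mean above the floor, all 4 were highest in tumor 1, and 2 of the 7 passed the test, Ugt8a at 8.60 in tumor 1, against 6.55, 6.60 and 5.94 (limma, adjusted p = 0.0389), and Mog at 6.03 (limma, adjusted p = 0.0335), below the floor in the other 3. Mbp, at 11.59, and Cldn11, at 7.60, were also highest in tumor 1. Of all 9731 genes with a mean above the floor, 25.0% were highest in tumor 1. The part of progenitors, neurons and glia in the low class I readings of tumor 1 was not tested.

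**Figure D4:**
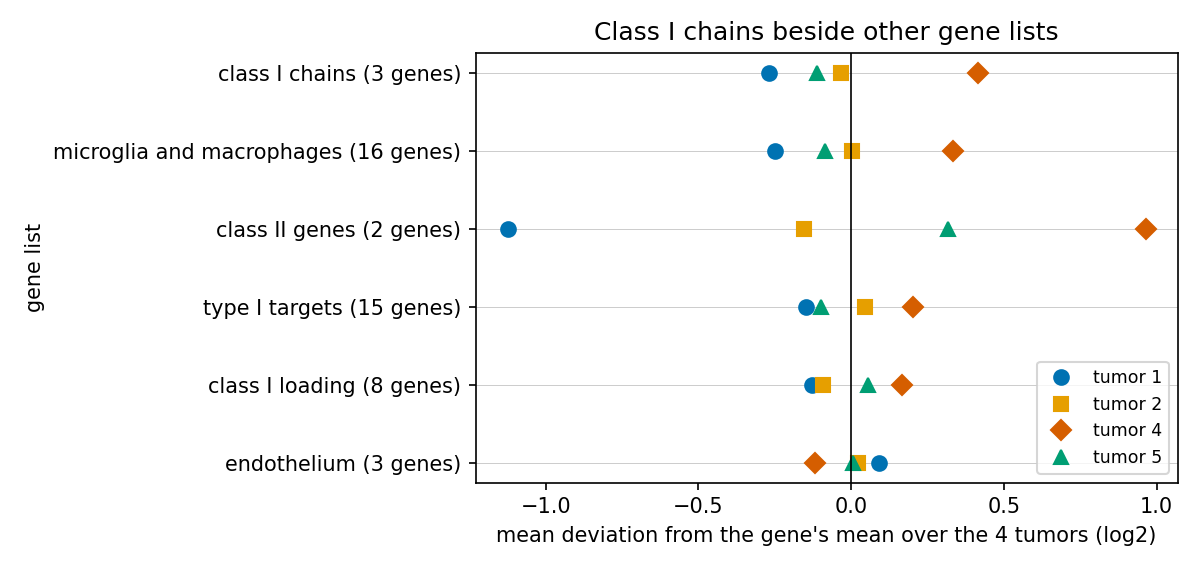
Mean log2 deviation of each gene list from its genes' own means over the 4 tumors (1 point per tumor; each gene by its brightest probe set, genes with a mean above the floor). Tumor 4 lies at 0.41 for the class I chains and 0.33 for microglia and macrophages, and tumor 1 at -0.27 and -0.25; the class II points rest on 2 genes with values below the floor in tumor 1.

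The genes most like the members over the 4 tumors were found by the root mean square difference between centred log2 profiles, among 8485 genes. Nearest to the mean profile of the 5 interferon-induced members were S100a1 (0.027), Cptp (0.029), Stat3 (0.038), Rgs16 (0.049) and Tmem158 (0.056), all in log2 units. Nearest to the mean profile of the 3 class I chains, a second search chosen after the values were seen, were Tmem86a (0.022), S100a10 (0.024), Golt1b (0.040), C1qc (0.045) and Rpusd1 (0.050). C1qc, a subunit of complement C1q made by microglia and macrophages, read 9.44 in tumor 4, against 8.67, 8.94 and 8.94 in tumors 1, 2 and 5. With 4 points per gene many profiles lie close by, and nothing is read from such likeness.

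The arrays were alike in the measures of quality available. The share of probe sets above the floor was between 59.1% and 61.3%. For Gapdh, the signal of the 3' control over that of the 5' control was between 0.686 and 0.757, with tumor 4 at 0.748. H2 genes are highly polymorphic between strains, and the sources used here do not state the H2 haplotype of each mouse on this mixed background. Whether an allele changes how well a probe set reads its transcript was not tested.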

How the data were processed

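Total RNA of 4 tumors was hybridised to 1 array each. The deposited table holds log2 signals of 29304 probe sets, and the submitters' processing notes name MAS5, which summarises and scales each array on its own; a version and a target signal were not given in the sources used here. Gene names came from GEO's annotation of the platform: 24679 probe sets had 1 gene, 647 several and 3917 none, and 61 were controls. The log2 values were used as deposited, unfiltered and unfloored. The test of each tumor against the rest was limma (version 3.58.1, R 4.3.3; lmFit, eBayes with an intensity trend, Benjamini-Hochberg over all 24679), which was also tested on simulated data. Named genes were all member probe sets, and from each list those that passed and up to 3 of widest range above the floor; others named are examples chosen after their values were seen. The members and lists were chosen with earlier results of these data known. Alternatives were a filter on the mean (5.88, the median over all probe sets), that filter with values raised to the floor, quantile normalization, no trend, no _x_at or _s_at probe sets, 1 probe set per gene, and leaving out each tumor. Nothing says whether the tumors differ in litter or batch. The number of arrays limits the precision.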

Additional observations from a re-analysis of the deposited data

Results flagged for a closer look

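Of 55 profiles checked, the 16 member probe sets and the list genes named by rule, 5 had a single tumor so far from the others that its gap to the nearest, as a ratio to the whole range, was above the critical value of Dixon's test for 4 values, which chance passes in about 1 of 20 groups. The list genes had been picked for a wide range or a passed test, so this rate need not hold for them. Irf9 (ratio 0.854) had tumor 2 high, at 6.81, and Bst2 (ratio 0.88) had tumor 4 high, at 5.94. H2-D1 1450170_x_at (ratio 1.0) had tumor 5 at 2.29 and the other 3 at 2.07, all far below the floor. Ptprc (ratio 0.938) had tumor 1 low, at 4.83, and Mog, a myelin gene (ratio 0.869), had tumor 1 high, at 6.03.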

How the results depend on the processing

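No member passed the test under any alternative run, and the class I median of tumor 4 stayed above 0 in all of them, between 0.52 and 0.68 without one of the other tumors and between 0.36 and 0.66 otherwise; the class I median of tumor 1 stayed below 0, between -0.53 and -0.22 and between -0.51 and -0.20. Leaving out another tumor could not change the sign of either class I median. Tumor 4 was highest on 10 of the 11 class I probe sets and tumor 1 lowest on 8. For those runs only the size of the median is informative. The interferon-induced median of tumor 1 lay between -0.12 and 0.24 when another tumor was left out, 0.24 being without tumor 4. No interferon-induced member was left by the mean filter. Leaving out another tumor moved Irf9 between -0.59 and 0.14 in tumor 4 and between -0.69 and 0.038 in tumor 1, above 0 when tumor 2 was left out, and Bst2 in tumor 1 between -0.30 and 0.033, above 0 without tumor 4. The 121 probe sets that passed in tumor 1 became 0 without the intensity trend and 187 with 1 probe set per gene; leaving out tumor 2, 4 or 5 gave 0 to 0. In tumors 2, 4 and 5, 0 to 3, 0 to 1 and 0 to 4 passed when another was left out. The causes were not tested. The count of class I probe sets highest in tumor 4, 9 of 9, was the same with quantile normalization, an alternative chosen after seeing the data. Leaving out tumor 1, also chosen then, could not change it. No paired analysis was possible because all samples belong to 1 group. Signals below the floor limit what can be said of Irf7, Ifit1 and Ifit3.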
